A study of Mus musculus with 8 samples.

Results

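This account concerns 10 genes that carry glucose from the cell surface to lactate: the glucose carrier Slc2a1 and the glycolytic enzyme genes Hk1, Hk2, Pfkl, Aldoa, Tpi1, Pgk1, Eno1, Pkm and Ldha. They were chosen by name, and all 10 were found among the 53647 gene identifiers of the count tables and were among the 16352 genes abundant enough to test. RNA was sequenced from mouse marrow sorted for cells negative for lineage markers and positive for CD127, a gate on the interleukin 7 receptor alpha chain that takes in early lymphoid progenitors and innate lymphoid cell precursors. There were 4 wild-type libraries, WT1 to WT4, labelled Trerf1 +/+, and 4 knockout libraries, KO1 to KO4, labelled Tref1 -/-. Trerf1 encodes a zinc finger regulator of transcription, and the comparison asks which transcripts differ between the libraries labelled knockout and wild type. The labels give no age, strain, sex or allele design and no treatment, and they do not say whether the numbered libraries are separate animals, so p-values measure only the spread between these libraries, which may be technical.

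Glycolysis splits 1 glucose into a pair of pyruvate molecules and yields ATP without oxygen. Hexokinase traps glucose in the cell, phosphofructokinase commits it to the pathway, and pyruvate kinase makes the last ATP, while lactate dehydrogenase returns the NAD that an earlier step consumed. Many steps have several isozymes that differ in regulation. In lymphocytes, Slc2a1 and Hk2 are known as the inducible entry points that rise when cells grow and divide, and Hif1a and Myc are known activators of the pathway, binding the letters ACGTG or GCGTG and CACGTG respectively.

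The stretch just upstream of the start site is shown for 3 of the genes, because they differ in the results below: Ldha was the steadiest across libraries, Hk2 the most variable, and Pgk1 is the only one on the X chromosome. Each is the RefSeq sequence of build GRCm38.p6, 250 bases ending at the start site, printed 5′ to 3′ on the gene's own strand, with ACGTG or GCGTG on either strand in capitals, so that a CACGTG also appears in capitals.
Ldha at chr7:46845554-46845803, plus strand: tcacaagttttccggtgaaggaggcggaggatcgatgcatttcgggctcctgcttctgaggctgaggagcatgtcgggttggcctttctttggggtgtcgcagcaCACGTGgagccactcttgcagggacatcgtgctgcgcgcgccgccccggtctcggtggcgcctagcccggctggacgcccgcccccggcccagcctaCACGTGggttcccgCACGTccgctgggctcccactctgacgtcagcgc
Hk2 at chr6:82774455-82774704, minus strand: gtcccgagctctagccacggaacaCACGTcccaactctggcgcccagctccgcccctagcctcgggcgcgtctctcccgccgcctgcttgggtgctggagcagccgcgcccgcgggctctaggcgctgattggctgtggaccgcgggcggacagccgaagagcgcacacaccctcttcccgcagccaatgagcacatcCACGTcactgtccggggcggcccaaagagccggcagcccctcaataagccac
Pgk1 at chrX:106186850-106187099, plus strand: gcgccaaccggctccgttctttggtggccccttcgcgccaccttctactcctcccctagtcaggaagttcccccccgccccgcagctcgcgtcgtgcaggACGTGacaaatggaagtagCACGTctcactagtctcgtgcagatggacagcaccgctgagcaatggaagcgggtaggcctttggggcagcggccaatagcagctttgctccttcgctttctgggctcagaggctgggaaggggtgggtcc
RefSeq lists 17 such windows for the 10 genes, and another Ldha window is not printed. ACGTG was found in 7 of the 17 windows (41.2%), from 6 genes (Aldoa, Hk2, Ldha, Pgk1, Pkm and Slc2a1), against 16.6% of all 32851 windows. GCGTG was found in 7 windows from 5 genes (Eno1, Hk1, Ldha, Pfkl and Slc2a1), against 28.2% of all windows. CACGTG, which contains ACGTG, was found only in the printed Ldha window, where it occurs at 2 places, against 6.02% of all windows. Tpi1 had neither 5-letter match in its window. Windows of 1 gene overlap one another, and a match of letters is a description, not a measured binding site.

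The libraries held 31109744 to 73414626 counts, with WT2, WT4 and KO4 the deepest at 63498254 or more. Trerf1 itself was measured at 29.0, 32.1, 27.1 and 22.3 counts-per-million (CPM) in WT1 to WT4 and at 13.4, 12.8, 12.1 and 22.1 CPM in KO1 to KO4. The library labelled KO4 therefore reached nearly the level of WT4, while KO1 to KO3 were well below every wild-type library. Trerf1 reads were not absent from KO1 to KO3, at 12.1 to 13.4 CPM, and what these reads represent was not tested. The log2 fold change of Trerf1 was -0.87 ± 0.20 (SE, adjusted p = 0.999, edgeR quasi-likelihood test). It was -1.11 without KO4 (adjusted p = 0.295) and -0.96 without WT4 (adjusted p = 0.793). Without both it was -1.21 (adjusted p = 0.0473), but those are the libraries with the highest knockout and the lowest wild-type level, so leaving them out widens the difference by construction. Whether either library carries a wrong label was not tested, and every knockout value below takes the labels as given. Xist, expressed from the inactive X of females, reached 447 CPM or more in 5 libraries and did not exceed 0.613 CPM in the other 3, which were WT2, WT3 and KO2. The gate's own Il7r lay between 269 and 415 CPM in all libraries. Markers listed for plasmacytoid dendritic cells (Ly6d, Irf8, Siglech and 3 others) summed to 9066 to 14443 CPM. Those listed for lymphoid progenitors (Dntt, Flt3, Il7r and 3 others) summed to 2436 to 5241 CPM. Sums over different genes do not compare amounts of cell types, and a listed marker such as Ly6d, the most abundant of the first list, need not be confined to 1 cell type. Erythroid markers, 14 found of 15 listed, summed to 1129, 438, 164 and 107 CPM in WT1 to WT4 and to 521, 301, 120 and 129 CPM in KO1 to KO4. The same limits hold for this list, led by Car2, Hbb-bs and Hba-a1. No marker of these lists was at 0 in all libraries.

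None of the 10 glycolysis genes passed the test of knockout against wild type: 0 of 10 reached an adjusted p under 0.05, and over all genes tested 0 of 16352 did (0.0%). At an unadjusted p under 0.05, 0 of the 10 passed, where 322 genes of all tested did (1.97%). DESeq2 likewise called no gene, with 565 of 29987 genes (1.88%) at an unadjusted p under 0.05. Nor did limma-voom call any, with 891 of 16352 genes (5.45%) at that level. In every one of the 10 genes the knockout and wild-type libraries overlapped, while the groups were separate for 210 of all genes tested (1.28%). The median log2 fold change of the 10 was 0.03, against 0.01 over all genes tested and 0.02 over the 9036 genes with a mean of at least 10 CPM. The estimate was above 0 for 8 genes and below 0 for 2 (Hk2 and Ldha), but scaling by library size alone gave 5 and 5. The 10 genes together summed to 2398, 2360, 2612 and 2586 CPM in WT1 to WT4 and to 2396, 2564, 2627 and 2755 CPM in KO1 to KO4.

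**Figure D1:**
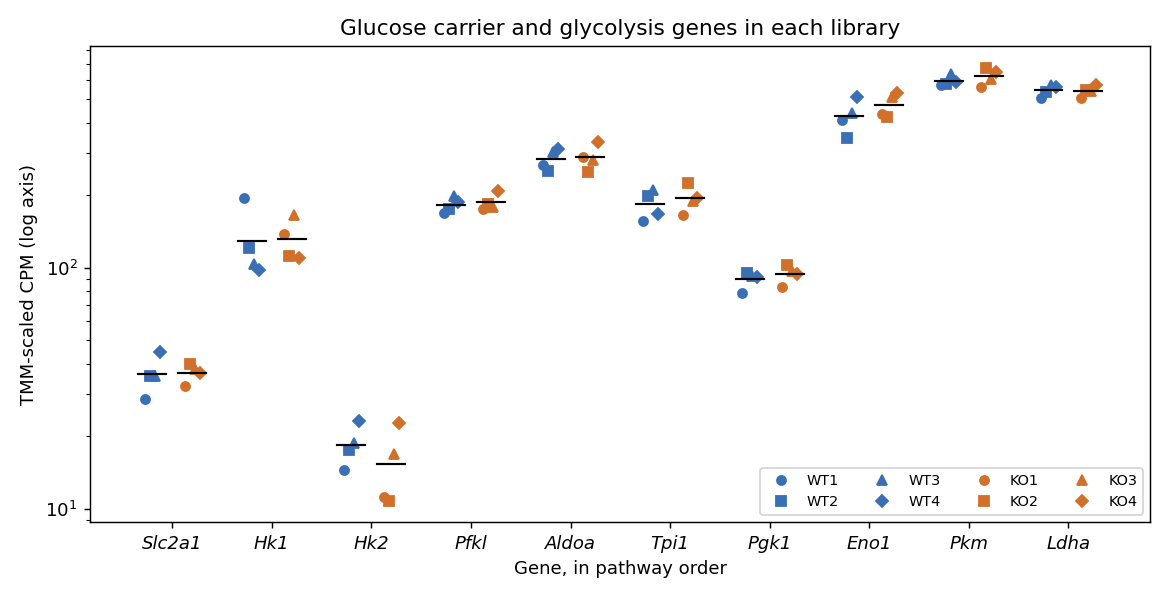
TMM-scaled CPM (log axis) of the 10 genes in each of the 8 libraries, wild type in blue and knockout in orange, with a black line at each group mean. The knockout and wild-type points overlap for every gene, and the points spread most for Hk1 (97.7 to 195 CPM) and Hk2 (10.8 to 23.1 CPM).

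Slc2a1 (chr4:118965908-118995180, plus strand, GRCm39) encodes GLUT1, a facilitative carrier that brings glucose across the plasma membrane. It was measured at 28.6, 35.4, 35.5 and 44.7 CPM in WT1 to WT4 and at 32.3, 39.9, 38.0 and 36.4 CPM in KO1 to KO4. WT1 was the lowest and WT4 the highest library, with all knockout libraries between them. The log2 fold change was 0.02 ± 0.14 (SE), and its 95% interval ran from 0.821-fold to 1.26-fold. Per unit of transcript length, Slc2a1 was not the most abundant carrier: it averaged 17.8 ± 2.39 transcripts-per-million (TPM; SD, n = 8), below Slc2a3 (34.3 TPM), which encodes GLUT3, and Slc2a6 (33.6 TPM), and above Slc2a8 (10.6 TPM). RNA levels do not show which of these 4 carriers act at the plasma membrane. Slc2a1 made up 12.8% to 22.7% of their summed TPM. That share was 18.8% ± 4.22 in wild type and 18.7% ± 3.06 in knockout (SD, n = 4 each), a difference of -0.02 percentage points (exact permutation p = 0.971, two-sided).

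Hk1 (chr10:62104634-62215687, minus strand) encodes the hexokinase that most cells express at a steady level. It was measured at 195, 121, 104 and 97.7 CPM in WT1 to WT4 and at 138, 112, 166 and 110 CPM in KO1 to KO4. WT1 and KO3 stood highest, and WT4 and WT3 lowest. The group means were 129 ± 44.6 and 131 ± 26.2 CPM (SD, n = 4 each), and the log2 fold change of 0.02 ± 0.22 (SE) had a 95% interval from 0.729-fold to 1.41-fold. The estimate rose to 0.28 without WT1 and fell below 0 when any of WT2, WT3, WT4, KO1 or KO3 was left out (-0.11 without KO3). WT1 also had the highest summed erythroid markers, 1129 CPM, but KO3, the next highest in Hk1, was among the lowest in them at 120 CPM; their part in the spread of Hk1 was not tested. In these bulk samples, fewer cells of a type and less RNA per cell cannot be told apart.

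Hk2 (chr6:82702006-82751435, minus strand) encodes the inducible hexokinase that binds mitochondria and is raised in proliferating cells. It was the scarcest of the 10, at 14.5, 17.5, 18.7 and 23.1 CPM in WT1 to WT4 and 11.2, 10.8, 16.8 and 22.6 CPM in KO1 to KO4. KO1 and KO2 were below every wild-type library, KO3 lay within the wild-type range and KO4 near its top. Its log2 fold change of -0.26 ± 0.24 (SE, unadjusted p = 0.309, adjusted p = 0.999, edgeR) was the lowest of the 10, with a 95% interval from 0.574-fold to 1.21-fold. Each knockout library was below the wild-type library of the same number. With the library number as a block the estimate was -0.308 (adjusted p = 0.936, edgeR). Without the library labelled KO4, the one with near wild-type Trerf1, the estimate was -0.51 (unadjusted p = 0.0374, adjusted p = 0.797); in that setting 5.9% of all genes tested had an unadjusted p under 0.05, against 1.97% with all libraries. The 3 libraries without Xist and the 3 deepest each hold a single knockout library, KO2 and KO4, and gave -0.76 and 0.12 as values of those libraries alone. The 3 deepest libraries, at 17.5 to 23.1 CPM, lay above 4 of the 5 shallower ones, WT3 at 18.7 CPM being the exception; the part of depth in this was not tested.

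The makeup of the hexokinase transcripts varied widely among the libraries of both genotypes. Hk1 supplied 70.6% to 87.4% of the summed TPM of Hk1, Hk2 and Hk3, and Hk2 supplied 8.56%, 13.5%, 17.2% and 23.0% across WT1 to WT4 and 8.61%, 10%, 13.5% and 20.7% across KO1 to KO4. The Hk2 share was thus highest in WT4 and KO4 and lowest in WT1 and KO1. WT1 and KO1 held the most summed erythroid markers (1129 and 521 CPM) and WT4 and KO4 little (107 and 129 CPM), though KO3, with 120 CPM of those markers, had a share of 13.5%. Erythroid markers, plasmacytoid dendritic cell markers and depth all differed among these libraries, and their part in the share was not tested. Between genotypes the share was 15.5% ± 6.07 and 13.2% ± 5.41 (SD, n = 4 each; exact permutation p = 0.629, adjusted p = 0.9 over 7 families). That test took no account of the library number, along which the share rose in both genotypes. Hk3, a hexokinase of myeloid cells, was 5.80, 4.58, 5.98 and 6.61 CPM in wild type and 9.20, 7.41, 6.67 and 8.27 CPM in knockout. Every knockout library lay above every wild-type library in Hk3, though KO3 at 6.67 CPM barely exceeded WT4 at 6.61 CPM. Hk3 was 1 of 15 other glycolysis enzymes tested to separate in this way, as did 210 of all 16352 genes tested (1.28%). Its log2 fold change of 0.46 ± 0.19 did not pass (unadjusted p = 0.0329, adjusted p = 0.999, edgeR). The sums of the 9 monocyte and neutrophil markers were 492 to 546 CPM in wild type and 480 to 684 CPM in knockout, with KO1, KO2 and KO4 above the wild-type range; their part in Hk3 was not tested.

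**Figure D2:**
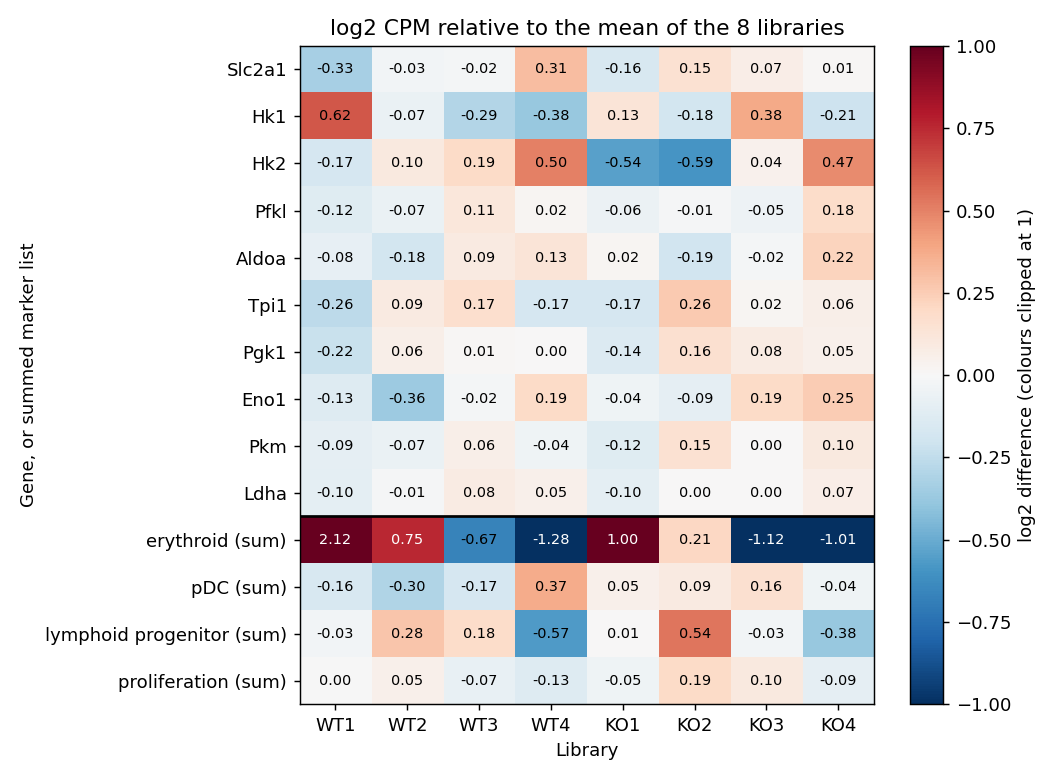
Log2 CPM of the 10 genes in each library relative to the mean of the 8 libraries, above the same for summed markers of erythroid cells, plasmacytoid dendritic cells (pDC), lymphoid progenitors and proliferation, with colours clipped at 1. WT1 and KO1 are below the mean for most of the 10 genes, while Hk1 is highest in WT1, and the erythroid sum, at 107 to 1129 CPM, varies more than any of the 10.

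Pfkl (chr10:77822781-77845917, minus strand) encodes the liver-type subunit of phosphofructokinase. It was steady, at 169, 175, 199 and 187 CPM in WT1 to WT4 and 176, 183, 178 and 209 CPM in KO1 to KO4. The highest library, KO4, was 1.24 times the lowest, WT1. Knockout differed from wild type by 0.03 ± 0.09 (SE, log2), with a 95% interval from 0.891-fold to 1.18-fold. Pfkl supplied 56.0% to 63.1% of phosphofructokinase TPM, ahead of the platelet-type Pfkp (39.2 TPM on average) and the muscle-type Pfkm (14 TPM). Its share was 58.9% ± 3.18 in wild type and 60.2% ± 2.67 in knockout (exact permutation p = 0.571).

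Aldoa and Tpi1 act next: aldolase cleaves fructose bisphosphate, and triosephosphate isomerase interconverts the products. Aldoa (chr7:126394406-126399923, minus strand) was measured at 268, 251, 302 and 310 CPM in WT1 to WT4 and at 288, 250, 280 and 331 CPM in KO1 to KO4, and its log2 fold change was 0.02 ± 0.11 (SE; interval 0.857-fold to 1.2-fold). It supplied 97.0% to 98.7% of aldolase TPM, the remainder being Aldoc at 5.50 TPM. Tpi1 (chr6:124787549-124791259, minus strand) was measured at 157, 199, 210 and 167 CPM in WT1 to WT4 and at 166, 225, 190 and 195 CPM in KO1 to KO4. Its log2 fold change was 0.08 ± 0.12 (SE; interval 0.877-fold to 1.28-fold). By Xist class, a split noticed after the values were seen, the 3 libraries without Xist held 199 to 225 CPM of Tpi1. The 5 with Xist held 157 to 195 CPM, so the classes nearly touched. How many of all genes tested separate by Xist class was not counted. Within the 5 libraries with Xist the knockout estimate of Tpi1 was 0.18, and the class without Xist holds 1 knockout library, KO2. With all libraries the estimate came close to 0 without KO2 (0.004) or without WT1 (0.006).

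Pgk1, Eno1 and Pkm belong to the ATP-yielding stage of the pathway. Pgk1 (chrX:105230706-105247305, plus strand) encodes the first ATP-making enzyme, and was measured at 78.6, 95.2, 92.5 and 91.5 CPM in WT1 to WT4 and at 83.1, 103, 97.1 and 94.6 CPM in KO1 to KO4. WT1 and KO1 were the low pair. Its estimate was 0.08 ± 0.10 (SE, log2; interval 0.909-fold to 1.22-fold). Although X-linked, Pgk1 was not higher in the libraries with Xist, whose mean was 89.0 CPM against 96.8 CPM in the 3 without, and the ranges overlapped. The testis-type Pgk2 was listed at 0 TPM in every library.

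Eno1 (chr4:150321178-150333336, plus strand) encodes the common enolase. It was measured at 409, 347, 440 and 511 CPM in WT1 to WT4 and at 434, 421, 510 and 533 CPM in KO1 to KO4. KO4, WT4 and KO3 stood highest and WT2 lowest. The log2 fold change of 0.15 ± 0.13 (SE) was the highest of the 10 and its 95% interval ran from 0.911-fold to 1.36-fold (unadjusted p = 0.265, adjusted p = 0.999, edgeR). Without WT2 the estimate was 0.06. Eno1 supplied 97.5% to 98.7% of enolase TPM, 98.4% ± 0.178 in wild type and 98.0% ± 0.498 in knockout (exact permutation p = 0.257), beside the muscle-type Eno3 at 8.35 TPM and the neuronal Eno2 at 0.392 TPM.

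Pkm (chr9:59563651-59586658, plus strand) encodes the muscle-type pyruvate kinase, whose M1 and M2 splice forms these gene-level counts do not separate. It was measured at 571, 581, 634 and 590 CPM in WT1 to WT4 and at 560, 677, 609 and 652 CPM in KO1 to KO4, with KO2 the highest and KO1 the lowest. The log2 fold change was 0.07 ± 0.09 (SE; interval 0.916-fold to 1.21-fold). Pklr, the form of liver and red cells, was listed at 5.33, 3.05, 0.56 and 0.08 TPM in WT1 to WT4 and at 3.44, 0.59, 0.17 and 0.47 TPM in KO1 to KO4. Its 3 highest libraries, WT1, KO1 and WT2, were also the 3 highest in summed erythroid markers. Pkm supplied 98.8% of pyruvate kinase TPM in WT1, its lowest share, and 99.9% or more in 5 of the 8 libraries.

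Ldha (chr7:46490899-46505051, plus strand) encodes the lactate dehydrogenase subunit that favours making lactate. It was the steadiest of the 10, at 507, 538, 575 and 564 CPM in WT1 to WT4 and 507, 544, 542 and 571 CPM in KO1 to KO4. The highest library was 1.13 times the lowest. The log2 fold change was -0.01 ± 0.08 (SE), with the tightest interval of the 10, 0.872-fold to 1.13-fold. Its partner subunit was far less steady: Ldhb, the heart-type subunit, ranged from 69.1 TPM in WT2 to 217 TPM in WT4. The Ldha share of lactate dehydrogenase TPM was therefore 76.8%, 88.5%, 88.3% and 69.5% across WT1 to WT4 and 74.4%, 82.8%, 76.1% and 74.8% across KO1 to KO4. The 3 highest shares were those of WT2, WT3 and KO2, which are also the 3 libraries without Xist. They were also the 3 with the highest summed lymphoid progenitor markers (4096 to 5241 CPM). Both matches were noticed after the values were seen. In the summed T cell and proliferation markers, KO3 was instead among the 3 highest libraries. The part of sex and of cell makeup in the Ldha share was not tested. The genotype means, 80.8% ± 9.29 and 77.0% ± 3.92, did not differ beyond their spread (exact permutation p = 0.4, adjusted p = 0.9).

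**Figure D3:**
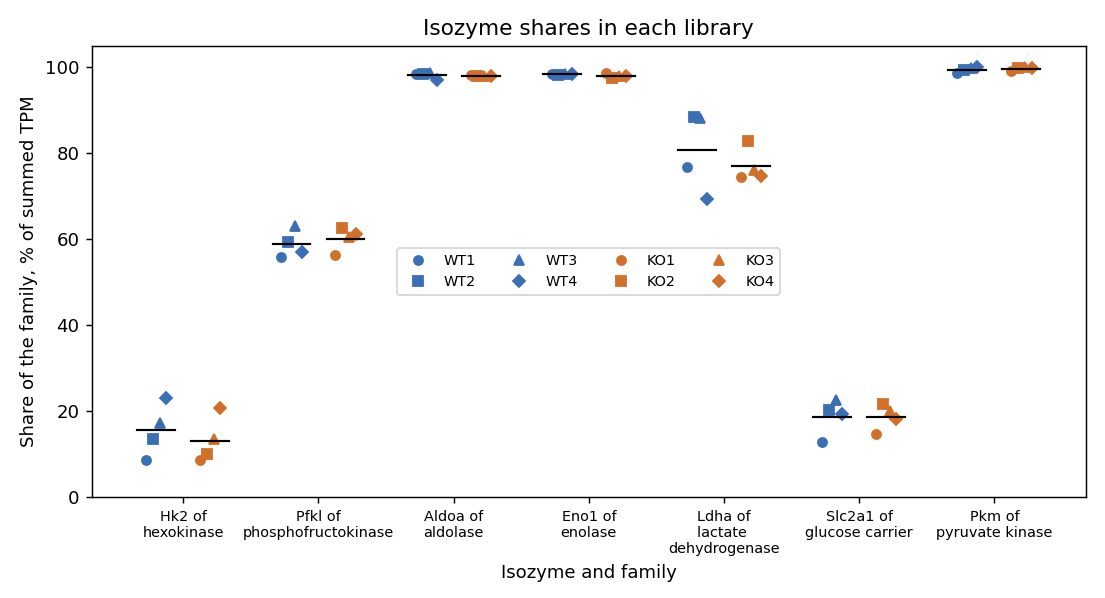
Share of each isozyme in the summed TPM of its family in each library, wild type in blue and knockout in orange, with a line at each group mean. Aldoa, Eno1 and Pkm hold 97.0% or more of their families in every library, whereas the shares of Hk2 (8.56% to 23.0%) and Ldha (69.5% to 88.5%) spread widely within both groups.

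Ordered by TPM, which corrects for transcript length, the 10 genes ran from Ldha (500 ± 33.8 TPM; SD, n = 8) through Eno1 (484 ± 56.4), Pkm (448 ± 28.4), Aldoa (282 ± 34.6), Tpi1 (177 ± 22.9), Pgk1 (138 ± 10.4), Pfkl (78.4 ± 8.13), Hk1 (43.3 ± 12.4) and Slc2a1 (17.8 ± 2.39) to Hk2 (7.46 ± 2.36). The 3 at the top had overlapping ranges: Ldha exceeded Eno1 in 4 of 8 libraries, and Eno1 exceeded Pkm in 6 of 8. Ldha exceeded Pkm within each of the 8 libraries. Tpi1 exceeded Pgk1 within each of the 8 libraries although their ranges overlapped. All other neighbours in the order had ranges that did not overlap. Summed over isozymes, the lowest sums were those of hexokinase at 53.8 TPM, the 4 carriers at 96.4 TPM and phosphofructokinase at 132 TPM. The hexokinase sum holds Hk1, Hk2 and Hk3 and leaves out Adpgk, an ADP-dependent glucokinase, which averaged 85.3 TPM by itself. It is therefore not the whole of glucose phosphorylation. The most abundant steps were lactate dehydrogenase at 636 TPM, Gapdh, the NADH-making step, at 578 TPM, enolase at 492 TPM and pyruvate kinase at 450 TPM. Levels did not climb evenly along the pathway: the early glucose phosphate isomerase was at 311 TPM, the late phosphoglycerate kinase at 138 TPM, with a range that overlapped that of phosphofructokinase, and phosphoglycerate mutase at 195 TPM. TPM is a level of RNA and gives no enzyme amount or flux.

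**Figure D4:**
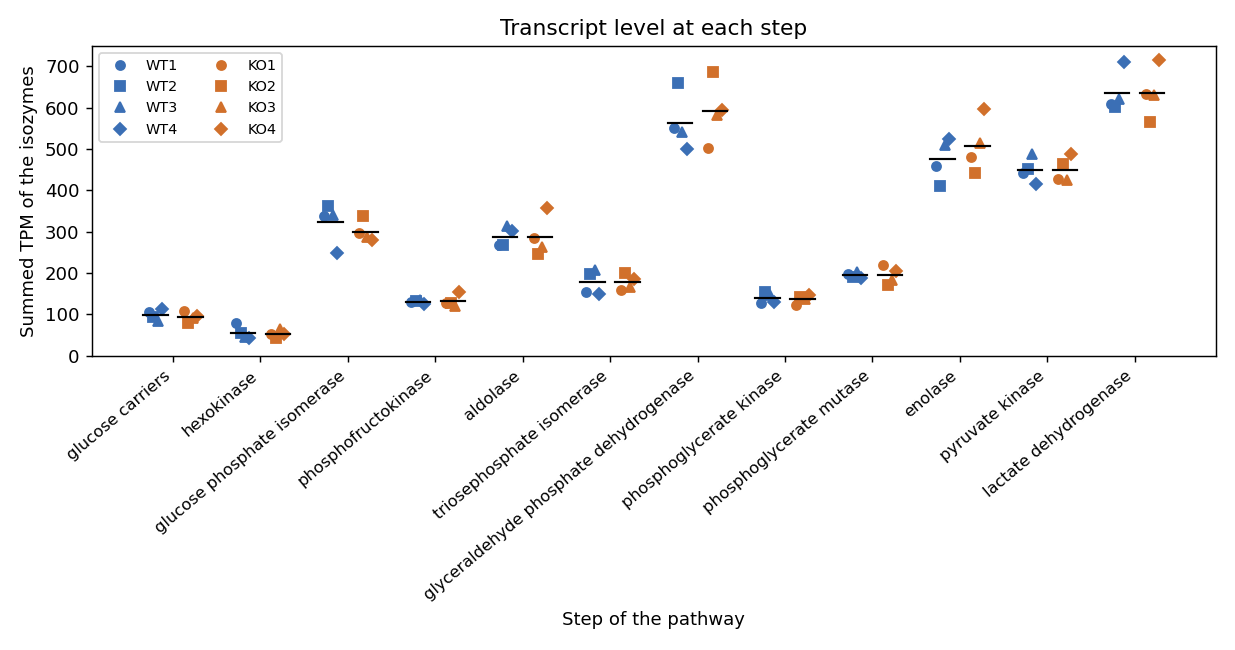
Summed TPM of the isozymes at each step of the pathway in each library, wild type in blue and knockout in orange, with a line at each group mean. Hexokinase, summed over Hk1, Hk2 and Hk3 without Adpgk, is the lowest step shown (42.0 to 78.2 TPM) and lactate dehydrogenase and Gapdh the highest, with the genotypes overlapping at every step.

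The count tables and the RSEM estimates did not treat the 10 genes alike. Relative to the ratio of counts to expected counts of the whole library, Pgk1 held 52.1% to 57.7%, Eno1 68.0% to 73.9% and Pkm 82.0% to 87.3%, while the other 7 genes held 101% to 126%. Reads of a gene with near-identical copies elsewhere are assigned to several places, and the deposited counts and RSEM may handle them differently; the cause was not tested. Of 8 listed copies, 7 were found, their counts summed to 2.87 to 5.70 CPM, and only Eno1b was abundant enough to test. The counts of the copies depend on the same handling of such reads, so they may be too low. CPM of Pgk1, Eno1 and Pkm are therefore uncertain as levels, and their fold changes in the RSEM expected counts were 0.01, 0.12 and 0.05 on the log2 scale.

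Across libraries, the spread of the 10 genes differed widely from gene to gene. The SD of log2 CPM over the 8 libraries had a median of 0.16 among the 10 and of 0.17 among the 9036 genes with a mean of at least 10 CPM. It ran from 0.07 for Ldha and 0.10 for Pfkl and Pkm to 0.35 for Hk1 and 0.41 for Hk2. WT1 was the lowest library for 4 genes and among the lowest 2 for 7, and KO1 was among the lowest 2 for 6, whereas KO4 was above the mean for 9 of 10. The median of the 10 centred log2 levels was -0.13 in WT1, -0.11 in KO1 and 0.09 in KO4. WT1 and KO1 also held the highest erythroid sums. The 5 genes whose profiles lay nearest the mean profile of the 10, by root mean square difference of centred log2 CPM over the 8 libraries among 7362 genes, were Nom1 (0.031), Adsl (0.032), Slc25a10 (0.037), Tbrg1 (0.039) and Msto1 (0.039), where the median gene was at 0.169. That mean profile is itself nearly flat, so nearness to it mostly marks steady genes; Ldha, the nearest of the 10, was at 0.041.

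No gene of the other lists of glucose metabolism passed the test, 0 called in each, against 0.0% of all genes tested. Of 21 other glycolysis enzymes, 15 were tested, with 11 estimates above 0 and 4 below and a median log2 fold change of 0.09. Among them Gapdh was 342 ± 24.9 CPM in wild type and 364 ± 51.7 in knockout, and Gpi1, which feeds phosphofructokinase, 406 ± 13.9 and 409 ± 39.9 (SD, n = 4 each). The low Eno2 had an estimate of 0.89 ± 0.48 (SE) at 0.277 and 0.518 CPM. Of 14 other sugar and lactate carriers 11 were tested, with a median of -0.06. They include the lactate exporter Slc16a3 (log2 fold change -0.23 ± 0.18), its chaperone Bsg (0.08 ± 0.10), Slc2a3 (-0.05 ± 0.16) and the insulin-regulated Slc2a4, which was at 1.22 CPM or less.

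**Figure D5:**
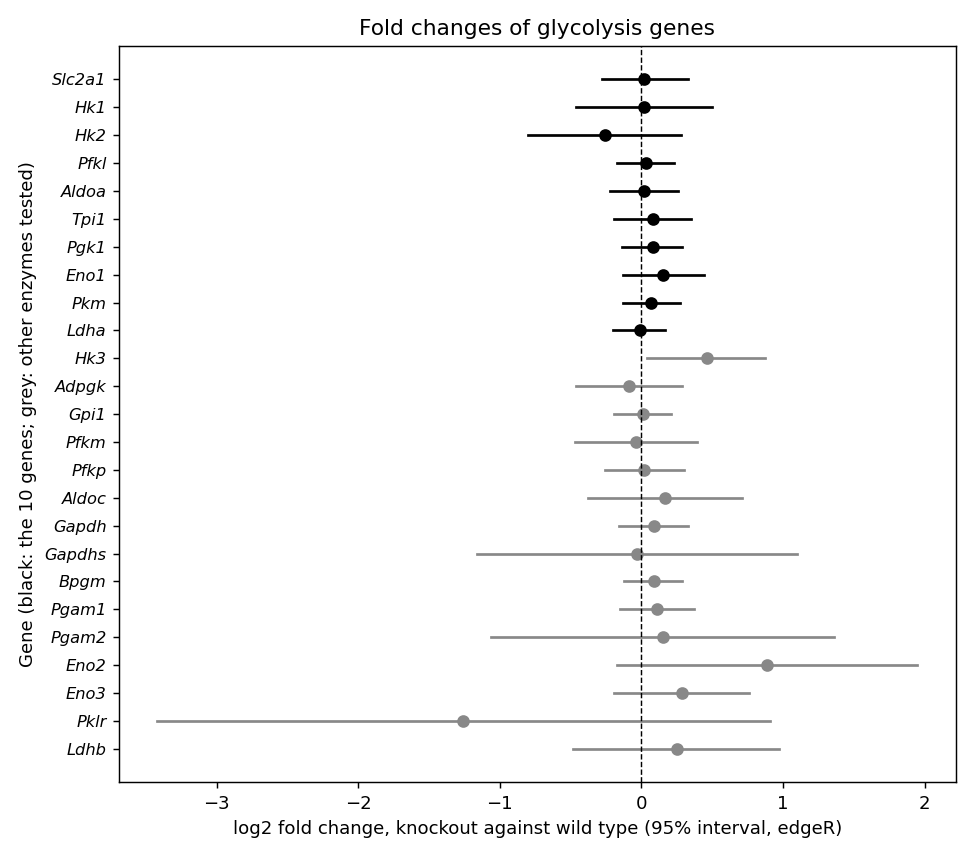
Log2 fold change of knockout against wild type with its 95% interval (edgeR) for the 10 genes in black and the 15 other tested glycolysis enzymes in grey. The interval includes 0 for all 10 genes, is narrowest for Ldha and widest for Hk2 among them, and excludes 0 only for Hk3 (1.03-fold to 1.83-fold) among the grey genes, which did not pass the adjusted threshold.

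The genes that steer glucose carbon around the pathway had small estimates throughout, apart from scarce ones. Of 19 genes of flux and pyruvate control 17 were tested (median 0.02), among them the mitochondrial pyruvate carrier genes Mpc1 (0.13 ± 0.18) and Mpc2 (0.12 ± 0.08), the pyruvate dehydrogenase subunit Pdhb (0.11 ± 0.09) and its phosphatase Pdp2 (0.14 ± 0.10). All 7 genes of the pentose phosphate pathway, which makes NADPH and ribose, were tested (median 0.02), with Rpia at 0.15 ± 0.15, Pgls at 0.11 ± 0.12 and Taldo1 at 0.07 ± 0.10. Of 16 gluconeogenesis and glycogen genes 12 were tested (median -0.01), and the largest estimate was that of the scarce Fbp1 (0.64 ± 0.34), beside Pygl (0.24 ± 0.18), G6pc3 (0.08 ± 0.09) and Pck2 (-0.04 ± 0.20). In the serine branch all 5 were tested (median 0.01), with Phgdh, its first enzyme, at 0.12 ± 0.12 and Shmt2 at -0.11 ± 0.10. Errors here are SE of log2 fold changes.

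None of the known regulators of the pathway passed the test. Of 15 listed transcription factors and their modifiers 14 were tested, with 5 estimates above 0, 9 below and a median of -0.03. Hif1a was measured at 156, 150, 141 and 202 CPM in WT1 to WT4 and at 172, 122, 164 and 167 CPM in KO1 to KO4, and Myc at 375, 371, 431 and 258 CPM and 294, 350, 354 and 339 CPM in the same order. WT4 held both the highest Hif1a and the lowest Myc. The estimates were -0.05 ± 0.14 for Hif1a, -0.10 ± 0.14 for Myc, -0.13 ± 0.20 for its partner Max, 0.28 ± 0.21 for the oxygen sensor Egln1 and -0.13 ± 0.11 for Hif1an. Of 15 hypoxia targets outside glycolysis 14 were found and tested (8 estimates above 0, 6 below, median 0.06). Vegfa, which rises with hypoxia, had the lowest unadjusted p of them, at 0.258 to 0.319 CPM in wild type and 0.392 to 0.617 CPM in knockout (log2 fold change 0.81 ± 0.36, unadjusted p = 0.0459, adjusted p = 0.999, edgeR), a level of well under 1 CPM. The abundant Bnip3l (0.16 ± 0.09) and Higd1a (0.09 ± 0.12) did not pass.

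The intervals give the precision of these comparisons. For Pfkl, Aldoa, Tpi1, Pgk1, Eno1, Pkm and Ldha the 95% intervals lay within 0.857-fold and 1.36-fold, for Slc2a1 within 0.821-fold and 1.26-fold, and for Hk1 and Hk2 between 0.574-fold and 1.41-fold. The intervals count the library labelled KO4 as a knockout. Without WT4 and KO4, 12 genes of 16300 passed (0.0736%), none of them among the 10, and the median of the 10 was 0.01.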

How the data were processed

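RNA of 8 libraries was analysed, 4 in each genotype, grouped by the genotype labels and titles. Per the file headers, the authors counted reads per gene with featureCounts 1.6.4, giving whole-number counts, on alignments with duplicates marked and with only an annotation and a thread number set. Strand, multiply mapped reads and paired reads therefore followed that program's defaults, so a gene and its antisense partner cannot be told apart. The authors also deposited RSEM expected counts and TPM (transcripts-per-million) for each gene, and the submitters' processing notes name RSEM 1.3.1, STAR 2.6.0a, Picard 2.19 and build mm10. The header of the count files names an annotation of GRCm39, and gene coordinates are given as those files hold them, taken as GRCm39. The summed counts were 3.67 to 4.0 times the summed expected counts; the cause was not tested.

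Identifiers were matched to symbols for 52093 of 53647 (97.1%). Where Aldoa had several identifiers, the one with the most counts was used. The test used edgeR 4.0.16 under R 4.3.3 on the counts: filterByExpr, TMM scaling, quasi-likelihood test without covariates, and Benjamini-Hochberg adjustment over 16352 genes at 0.05. The biological coefficient of variation was 26.9%. CPM is TMM-scaled, log2 CPM used a prior count of 3, SD is given for CPM, TPM and shares, and SE for log2 fold changes. Isozyme shares came from the deposited TPM and were tested by exact two-sided permutation of the genotypes over 70 assignments, whose smallest p is 0.0286, adjusted over 7 families. The fit was also run on simulated counts of independent libraries. These held no structure by library number, Xist or cell makeup and no doubtful label, so that run does not show how the fit performs on these data. DESeq2 1.42.0, limma 3.58.1 (voom) and other settings were alternatives.

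The 10 genes and all lists were chosen with earlier results of these data known. The text names the 10 genes, Trerf1, Xist, detected isozymes and the 5 genes nearest in profile. From each list of glucose metabolism it names up to 2 genes by lowest p and up to 2 by highest TPM. The 3 leading markers are named for the plasmacytoid dendritic cell, lymphoid progenitor and erythroid lists. The splits by Xist and by depth (the 3 deepest against the other 5) into separate sets of libraries were chosen after seeing the data. No 2 libraries held the same values: the closest pair differed in 23278 genes. Same-numbered libraries of the genotypes did not deviate together in every pair (correlations 0.36, 0.31, -0.03 and 0.12), so the numbers were not used to pair them in the main test. Within same-numbered pairs, Hk2 CPM was lower in knockout each time, and Eno1 and Pgk1 were higher each time. The rest of the 10 genes went in both directions.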

Additional observations from a re-analysis of the deposited data

Results flagged for a closer look

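In groups of 4 libraries, 1 value was marked where it stood far from the other 3 by Dixon's 95% criterion, over 36 groups checked. Chance marks about 1 group in 20, so that few marks say little. Trerf1 stood apart in the library labelled KO4, at 22.1 CPM against 12.1 to 13.4 CPM in KO1 to KO3. The Aldoa share of aldolase TPM stood apart in WT4, at 97.0% against 98.4% to 98.7% in the other wild-type libraries. The Pkm share of pyruvate kinase TPM stood apart in KO1, at 99.2% against 99.9% to 100% in the other knockout libraries, and KO1 held the highest erythroid sum of the knockout libraries, 521 CPM. The part of the erythroid markers in that share was not tested. No library was marked in the CPM of the 10 genes in either genotype.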

How the results depend on the processing

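None of the 10 genes passed the threshold under any alternative, an adjusted p under 0.1 included, and the median log2 fold change of the 10 stayed between -0.002 (without WT1) and 0.083 (3 deepest libraries). Over all genes, 0 passed, except 12 without WT4 and KO4, 4 in the 3 libraries without Xist and 2 in the 3 deepest; each of these 3-library sets holds 1 knockout library, assumed to vary like the others, so its calls concern that library. Trerf1 was at -1.205 without WT4 and KO4 (adjusted p = 0.0473), the libraries nearest the other genotype, and did not pass without KO4 alone (-1.114, adjusted p = 0.295) or WT4 alone (-0.956, adjusted p = 0.793). Single-gene estimates near 0 changed sign often. With library size alone Slc2a1 was -0.004, Hk1 -0.008 and Aldoa -0.008. With the Xist class as covariate Hk1 was -0.057 and Aldoa -0.021, and with the depth class Hk1 was -0.068 and Ldha 0.001. Without WT4 and KO4 Hk1 was -0.013, Pfkl -0.014 and Aldoa -0.009. In the 5 libraries with Xist Slc2a1 was -0.051, Hk1 -0.090 and Ldha 0.007, and in the 3 without it Hk1 was -0.028, Pfkl -0.050 and Aldoa -0.169. In the 5 shallower libraries Hk1 was -0.106, Pfkl -0.036 and Aldoa -0.067, and in the 3 deepest Slc2a1 was -0.177, Hk1 -0.041, Hk2 0.120, Pgk1 -0.021 and Ldha 0.012. Leaving out 1 library at a time gave Aldoa -0.056 to 0.081, Hk1 -0.108 to 0.279, Ldha -0.055 to 0.010, Pfkl -0.025 to 0.072 and Slc2a1 -0.081 to 0.144, and without a change of sign Tpi1 0.004 to 0.150, Pgk1 0.012 to 0.126, Eno1 0.057 to 0.252, Pkm 0.031 to 0.114 and Hk2 -0.512 to -0.126. The Slc2a1 share of carriers differed by 0.573 points from CPM per kilobase and by 0.319 points without WT4 and KO4. Leaving out 1 library at a time moved the difference in share from -0.528 to 0.026 points for Aldoa, -4.821 to 0.150 points for Hk2 and -2.008 to 1.322 points for Slc2a1. Without a change of sign it moved from -7.513 (without WT4) to -1.176 (without WT2) points for Ldha and from 0.355 (without WT1) to 2.748 (without WT3) points for Pfkl. The cause of these shifts was not tested. With the replicate block the 10 had a median of 0.046 and a smallest p of 0.0602, and 0 genes passed (634 against 322 at an unadjusted p under 0.05); libraries 1 and 2 correlated best with their own number, and 3 and 4 with each other's. Hk2 had the fewest counts of the 10 genes, 351 to 1621 a library, and whether depth limited its estimate was not tested. Which splice form of Pkm was present could not be read from gene-level values.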
